A study of Mus musculus with 17 samples.

Results

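Circadian clock genes were followed in neural precursor cells, cultured from the hippocampus of adult mice, during the first 720 min after withdrawal of 2 growth factors. The members were 10 genes chosen by name, namely Arntl (Bmal1), Per1, Per2, Cry1, Cry2, Nr1d1, Nr1d2, Dbp, Bhlhe40 and Bhlhe41. A probe was found by symbol, gene identifier or accession for 9 of them, with 1 probe each, among 19854 features. Nr1d1 was not analysed here. The signals of 7 members lay above the filter on dim probes, the median of all probe means (6.41 on the log2 scale), together with 9940 features in all. Cry1 and Bhlhe41 lay below it.

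Cells proliferated on coated plates in Neurobasal medium with B27, GlutaMAX, basic fibroblast growth factor (bFGF) and epidermal growth factor (EGF), and both factors were then removed to start differentiation. Total RNA was amplified, labelled with biotin and measured on Illumina bead arrays. Each of 17 times has 1 array. The array at 0 min was the proliferating culture. The labels name no genotype, strain or independent culture, and no age of the animals beyond adult. The times were grouped into 0-45 min (4 arrays), 60-120 min (3 arrays), 150-240 min (3 arrays), 300-420 min (3 arrays) and 480-720 min (4 arrays). The times within a window were treated as its replicates, and every SD and p-value therefore refers to the spread within 1 series of arrays, not to that between cultures. The SD of a window, and the spread behind the window p-values, also contain any change over time within a window. The series has no arm in which the growth factors stayed in the medium, and the series is shorter than a circadian cycle, so no test of rhythm was made.

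The array signals lay between 5.14 and 15.47 on the log2 scale, with array medians between 6.40 and 6.42 and a lowest correlation between 2 arrays of 0.972. Of the 7 neural precursor markers on the array, 5 lay above the filter (Nes, Sox2, Sox9, Fabp7 and Vim), while 0 of 3 microglial and 0 of 4 endothelial and mural markers did. Of 6 neuronal markers 1, Map2, lay above it, and Dcx and Tubb3 did not. The summed signal of the 4 astrocyte markers lay between 8.33 and 8.39 at 0-45 min and between 9.39 and 10.05 at 480-720 min, and that of the 3 oligodendrocyte markers between 7.55 and 7.72 and between 8.05 and 8.50. Their part in the clock gene differences at 480-720 min was not tested. In RNA from a whole culture, fewer cells expressing a gene and less RNA per cell cannot be told apart.

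The mammalian clock is a feedback loop of transcription. The bHLH-PAS proteins CLOCK and BMAL1 (the product of Arntl) bind E-boxes and switch on Per, Cry, Nr1d, Dbp and Bhlhe40 genes, PER and CRY proteins and the BHLHE40 and BHLHE41 repressors act back on that activation, and NR1D and ROR nuclear receptors repress or activate Arntl through ROR elements. DBP is a PAR bZIP activator that binds D-boxes, among others those of Per genes. In precursors of the adult mouse dentate gyrus, Bmal1 and Per2 have been linked to the control of proliferation.

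The promoter windows of Per1, Arntl and Cry2 are shown because these members carry the binding letters of the loop and differed in their time courses. Windows run from 250 bases before to 50 bases after an annotated start site and come from RefSeq (GRCm38.p6). Of the 10 members 8 had a window (10 windows in all), and Per2 and Bhlhe40 had none. Capitals mark a motif found by its letters on either strand.
Per1 promoter: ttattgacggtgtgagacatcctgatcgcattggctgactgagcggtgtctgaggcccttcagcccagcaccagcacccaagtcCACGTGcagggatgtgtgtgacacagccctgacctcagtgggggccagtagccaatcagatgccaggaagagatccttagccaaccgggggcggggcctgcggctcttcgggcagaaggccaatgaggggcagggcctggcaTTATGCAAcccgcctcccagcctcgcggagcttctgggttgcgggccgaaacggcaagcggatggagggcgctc
Arntl promoter: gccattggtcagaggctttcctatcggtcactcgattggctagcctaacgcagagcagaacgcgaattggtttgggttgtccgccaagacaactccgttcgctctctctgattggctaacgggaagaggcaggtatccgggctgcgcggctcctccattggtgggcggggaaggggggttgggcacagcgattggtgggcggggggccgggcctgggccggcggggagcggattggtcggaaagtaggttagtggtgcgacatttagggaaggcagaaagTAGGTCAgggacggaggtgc
Cry2 promoter: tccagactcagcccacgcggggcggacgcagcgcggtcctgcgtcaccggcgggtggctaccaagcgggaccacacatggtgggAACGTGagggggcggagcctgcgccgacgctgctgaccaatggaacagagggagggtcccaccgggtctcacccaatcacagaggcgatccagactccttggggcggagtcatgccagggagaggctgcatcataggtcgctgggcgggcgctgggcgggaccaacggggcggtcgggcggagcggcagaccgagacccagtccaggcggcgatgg
The Per1 window (chr11:69098699-69098998, plus strand) held an E-box (CACGTG) at bases 85 to 90 and a D-box (TTATGCAA) at bases 227 to 234, both before the start site. The Arntl window (chr7:113207261-113207560, plus strand) held a ROR element (TAGGTCA) at bases 281 to 287, after the start site. The Cry2 window (chr2:92434020-92434319, minus strand) held an E-box variant, the reverse complement of CACGTT, at bases 85 to 90. Among 32851 windows of all genes, 7.15% held that E-box on either strand, 4.68% the variant, 0.743% that D-box and 2.61% that ROR element. Per1 and Arntl each have a second annotated start site, with windows at chr11:69099902-69100201 and chr7:113207215-113207514 (both plus strand) that held 0 of the motifs searched, so the windows printed are those with a match. The E-box was also in the windows of Cry1 and Bhlhe41, and the variant in those of Cry1 and Nr1d1. The windows of Dbp and Nr1d2, whose time courses also passed, held 0 of the motifs searched. The further D-box TTATGTAA (0.938% of all windows), the ROR element TGGGTCA (3.98%) and the cAMP response element TGACGTCA (1.79%) were in 0 of the 10 windows. No motif searched overlapped another in the windows of the members. A match is a description of the letters only.

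Over the time course the clock genes did not move as a block. Per1 had its highest signal at 90 min and Arntl at 300 min. Dbp had an early maximum at 180 min and its highest signal at 720 min. Bhlhe40 and Per2 had lower means at 480-720 min than at 0-45 min. The Per2 array at 720 min lay within the range of its 0-45 min arrays again. All 7 members above the filter passed the test of the time course (limma moderated F test of a spline, Benjamini-Hochberg adjusted p under 0.05), a test that 61.9% of all 9940 features passed. The median fitted range of the 7, the highest minus the lowest point of the fitted curve, was 1.04 on the log2 scale, against 0.52 over all features. The fitted range was 1.74 for Dbp, 1.69 for Bhlhe40, 1.08 for Per2 and 1.04 for Arntl. It was 1.03 for Per1, 0.81 for Nr1d2 (0.50 without the 720 min array) and 0.79 for Cry2. The Dbp curve ran beyond its arrays, whose signals spanned 1.50, while the arrays of Bhlhe40 spanned 2.14. Over the alternatives of processing, the lowest fitted range was 1.23 for Dbp and 0.72 for Per2. The residual SD of the 7 around the curve ran from 0.14 for Arntl to 0.27 for Bhlhe40, beside a median of 0.14 over all features.

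**Figure D1:**
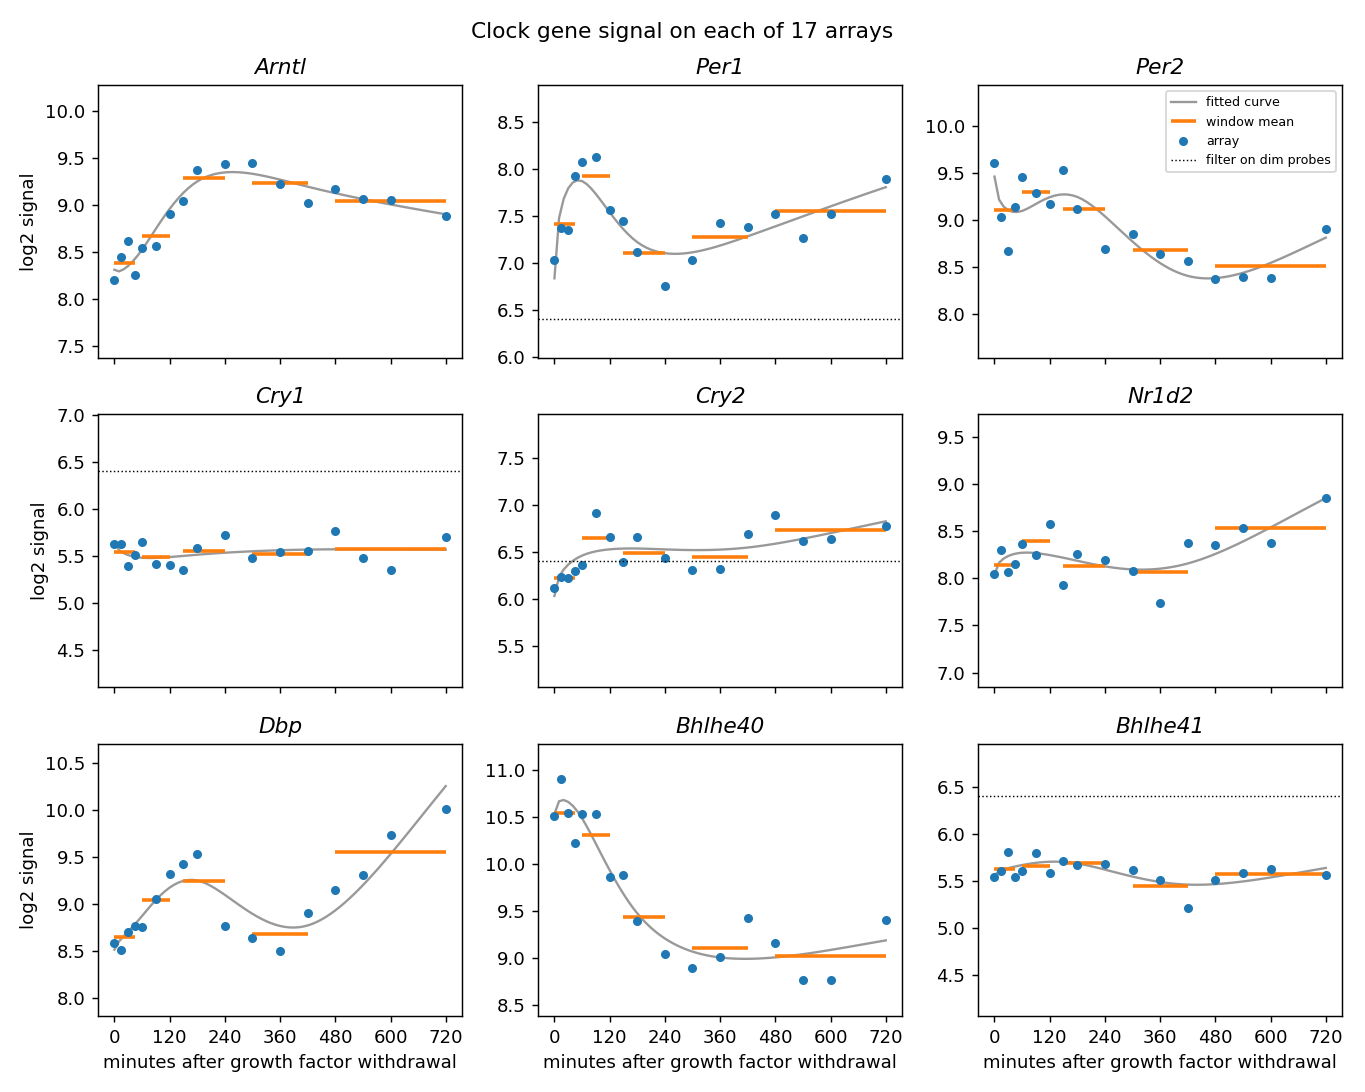
Log2 signal of the 9 measured clock genes (vertical axis, the same span in each panel) against minutes after growth factor withdrawal. Points are single arrays, orange bars the means of the 5 time windows, grey lines the fitted curves, and the dotted line is the filter on dim probes at 6.41, where it falls in the panel. Arntl, Dbp, Bhlhe40, Per1, Per2 and Nr1d2 each span more than 1 log2 unit from their lowest to their highest array and Cry2 spans 0.80, while Cry1 and Bhlhe41 stay below the filter at all 17 times.

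The first comparison set 60-120 min against 0-45 min, to find the earliest differences after the withdrawal. With limma, 0 of 7 members passed, beside 1.94% of all features. At an unadjusted p under 0.05 there were 4 members and 13.9% of features. The number of features that passed was 193, between 58 without the 120 min array and 359 without the 60 min array. The largest member difference was that of Per1, at 0.50 (SE 0.19, adjusted p = 0.216), followed by Cry2 at 0.43 (SE 0.13, adjusted p = 0.0853). The Cry2 difference passed when the 60 min array was left out (0.57, adjusted p = 0.0132).

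In the later comparisons with 0-45 min, which share those 4 arrays, members passed in both directions. At 150-240 min 2 members were higher, Arntl and Dbp, and 1 was lower, Bhlhe40, where 8.93% of features were higher and 10.4% lower. At 300-420 min 1 was higher, Arntl, and 1 lower, Bhlhe40, against 18.9% and 20.2% of features. At 480-720 min 4 of 7 were higher, Dbp, Arntl, Cry2 and Nr1d2, and 2 were lower, Bhlhe40 and Per2, against 26.8% and 25.9% of features. The median absolute difference of the 7 was 0.60 in that last window and 0.28 over all features, and at 300-420 min it was 0.23 for both.

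**Figure D2:**
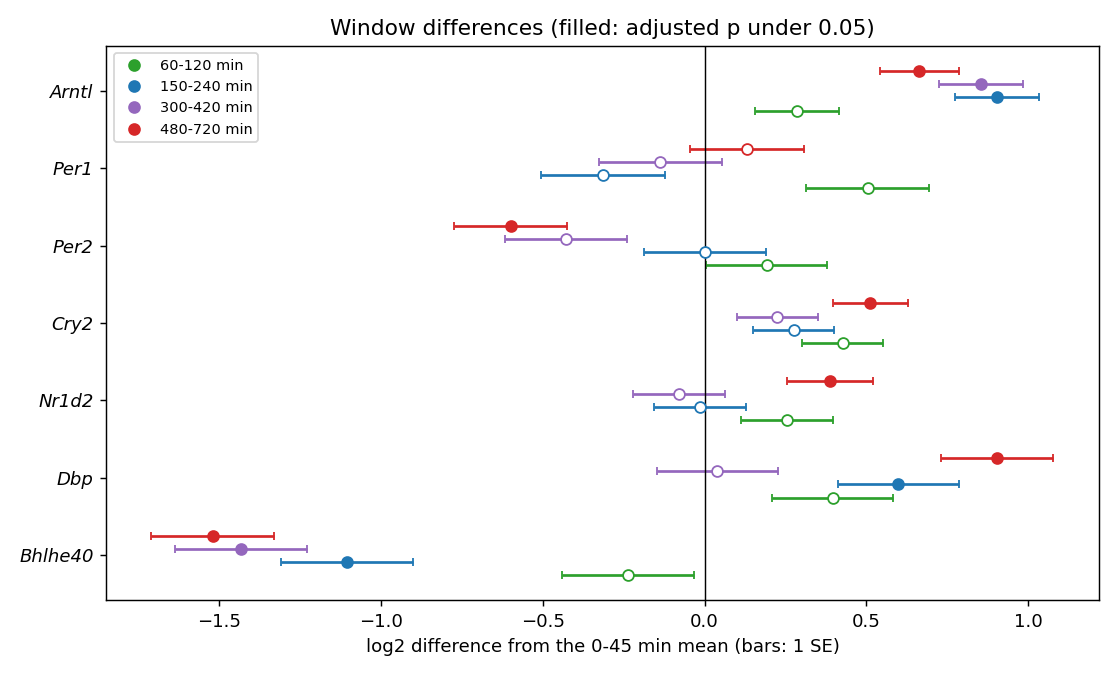
Log2 difference of each window mean from the 0-45 min mean (horizontal axis) for the 7 clock genes above the filter. Points are limma estimates with bars of 1 SE, colours are windows, and filled points have an adjusted p under 0.05. Bhlhe40 lies to the left in every window, down to -1.52, Arntl to the right, and Dbp is at 0.60, 0.04 and 0.90 in the windows from 150-240 min on.

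Arntl encodes BMAL1, the partner of CLOCK in the activating limb. Its signal was 8.21, 8.46, 8.62 and 8.25 at 0, 15, 30 and 45 min, and 8.54, 8.56 and 8.90 at 60, 90 and 120 min. It was 9.05, 9.38 and 9.44 at 150, 180 and 240 min, and 9.46, 9.23 and 9.03 at 300, 360 and 420 min. It was 9.17, 9.07, 9.06 and 8.89 at 480, 540, 600 and 720 min. From 120 min on, all 11 arrays lay above the highest of the 0-45 min arrays. Against 8.38 ± 0.19 at 0-45 min (SD, n = 4 times), Arntl was 0.90 higher at 150-240 min (SE 0.13, adjusted p = 2.62e-05), a 1.87-fold difference. It was 0.85 higher at 300-420 min (adjusted p = 2.08e-05) and 0.66 higher at 480-720 min (adjusted p = 8.69e-05). The last 2 means of Arntl, 9.24 ± 0.21 and 9.05 ± 0.12, were below the mean at 150-240 min, 9.29 ± 0.21. The difference of -0.24 between 480-720 and 150-240 min did not pass (SE 0.13, adjusted p = 0.166).

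Per1 encodes a repressor of the loop that is also known as a rapidly inducible gene. Its signal was 7.03, 7.38, 7.35 and 7.93 at 0, 15, 30 and 45 min, and 8.08, 8.13 and 7.57 at 60, 90 and 120 min. It was 7.44, 7.12 and 6.76 at 150, 180 and 240 min, and 7.04, 7.43 and 7.38 at 300, 360 and 420 min. At 480, 540, 600 and 720 min it was 7.53, 7.26, 7.53 and 7.89. The high arrays were those at 45, 60 and 90 min and the one at 720 min, and the lowest was at 240 min. The time course passed (adjusted p = 0.000363), but 0 of the 4 comparisons with 0-45 min did. The 45 min array belongs to the 0-45 min window, in which the Per1 SD was 0.37. Between 150-240 and 480-720 min Per1 differed by 0.45 (SE 0.19, adjusted p = 0.0753). This difference passed without the 45 min (adjusted p = 0.0487), 150 min (0.0333) or 540 min array (0.045). The 45 min array is in neither window, so leaving it out changed the shared spread and not the difference. The difference was 0.27 (adjusted p = 0.341) without the 240 min array, and -0.05 (adjusted p = 0.876) between the alternative windows of 90-180 and 420-720 min.

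Per2 encodes the second PER repressor. Its signal was 9.60, 9.04, 8.67 and 9.14 at 0, 15, 30 and 45 min, and 9.46, 9.28 and 9.17 at 60, 90 and 120 min. It was 9.53, 9.12 and 8.69 at 150, 180 and 240 min, and 8.85, 8.64 and 8.57 at 300, 360 and 420 min. At 480, 540, 600 and 720 min it was 8.37, 8.39, 8.38 and 8.91. The arrays from 360 to 600 min were the 5 lowest of the series, each below the lowest at 0-45 min, and the array at 720 min lay within that range again. Per2 was lower by 0.60 at 480-720 min than at 0-45 min (a log2 change of -0.60, SE 0.17, adjusted p = 0.00612), a 1.52-fold difference. The groups overlapped through the arrays at 30 and 720 min. The difference at 300-420 min, -0.43, did not pass (adjusted p = 0.0749), but did without the 30 min (adjusted p = 0.0189) or the 720 min array (adjusted p = 0.05). The 720 min array is in neither window, so leaving it out changed the shared spread and not the difference. The difference was -0.27 (adjusted p = 0.27) without the 0 min array, and it passed with array weights (-0.49, adjusted p = 0.0193). It also passed between the alternative windows of 0-60 and 240-360 min (-0.46, adjusted p = 0.0305). Against 150-240 min, Per2 was also lower at 480-720 min (-0.60, SE 0.19, adjusted p = 0.0163), with -0.39 and adjusted p = 0.148 without the 150 min array.

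Cry2 and Cry1 encode the cryptochromes, repressors that act together with PER proteins. Cry2 had a signal between 6.11 and 6.30 at 0-45 min, between 6.36 and 6.92 at 60-120 min, and between 6.39 and 6.66 at 150-240 min. It lay between 6.31 and 6.70 at 300-420 min and between 6.62 and 6.89 at 480-720 min. All 13 arrays from 60 min on lay above all 4 of the first window, which held in either direction for 4.98% of features. The margin was small at 60, 300 and 360 min (6.36, 6.31 and 6.32), beside 6.30 for the highest early array. The residual SD of Cry2 around its curve was 0.20. The Cry2 differences at 150-240 min (0.28, adjusted p = 0.135) and 300-420 min (0.23, adjusted p = 0.167) did not pass. Cry2 was 0.51 higher at 480-720 min (SE 0.12, adjusted p = 0.000825), a measured 1.43-fold difference. Its mean signal of 6.50 was close to the filter value of 6.41, and at such a level the measured difference can understate a change in RNA. With array weights its time course missed the threshold (adjusted p = 0.0717, against 0.0237).

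Cry1 signals lay between 5.35 and 5.76 over all 17 arrays, at percentile 1.01 of all probe means. In the fit without the filter, its time course did not pass (adjusted p = 0.886), where 33.1% of 19854 features did. Its difference at 480-720 min was 0.03 (SE 0.10, adjusted p = 0.877), in a comparison that 27.9% of the unfiltered features passed. No detection p-value came with the signals, so these values cannot be separated from background, and the array gives no measurement of a Cry1 change.

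Nr1d2 encodes REV-ERBβ, a nuclear receptor that represses Arntl. Its signal lay between 8.05 and 8.30 at 0-45 min, 8.25 and 8.58 at 60-120 min, 7.93 and 8.26 at 150-240 min, and 7.74 and 8.38 at 300-420 min. At 480, 540, 600 and 720 min it was 8.36, 8.54, 8.38 and 8.86, each above the highest 0-45 min array. The groups at 0-45 and 480-720 min did not overlap, as for 45.4% of features. Nr1d2 was 0.39 higher at 480-720 min (SE 0.13, adjusted p = 0.0171), but 0.28 higher with an adjusted p = 0.0792 without the 720 min array. Its time course likewise passed with that array (adjusted p = 0.0108) and not without it (adjusted p = 0.201). Against 150-240 min it was 0.40 higher (adjusted p = 0.0318), and this did not pass without the 150 min (adjusted p = 0.172), 540 min (0.0564) or 720 min array (0.116). It did not pass with array weights either (0.35, adjusted p = 0.0532), and Nr1d2 differed by 0.25 (adjusted p = 0.125) between the alternative windows of 90-180 and 420-720 min.

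Dbp encodes a D-box activator and is a direct target of CLOCK and BMAL1. Its signal was 8.59, 8.52, 8.71 and 8.77 at 0, 15, 30 and 45 min, and 8.76, 9.05 and 9.32 at 60, 90 and 120 min. It was 9.43, 9.53 and 8.77 at 150, 180 and 240 min, and 8.64, 8.51 and 8.91 at 300, 360 and 420 min. At 480, 540, 600 and 720 min it was 9.15, 9.31, 9.73 and 10.01. Dbp thus had 2 high phases, and after 360 min it was higher at each of the 5 following times, by 1.50 in all. At 150-240 min Dbp was 0.60 higher than at 0-45 min (SE 0.19, adjusted p = 0.0263), with an adjusted p = 0.058 without the 0 min, 0.0666 without the 15 min, 0.106 without the 150 min and 0.165 without the 180 min array. At 300-420 min the difference was 0.04 (adjusted p = 0.894). At 480-720 min Dbp was 0.90 higher (SE 0.17, adjusted p = 0.000151), a 1.87-fold difference, and the arrays did not overlap with those at 0-45 min. The means at 150-240 min, 9.24 ± 0.42, and at 480-720 min, 9.55 ± 0.39, differed by 0.31 (SE 0.19, adjusted p = 0.222). That difference was 0.07 (adjusted p = 0.819) without the 240 min and 0.15 (adjusted p = 0.565) without the 720 min array.

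Bhlhe40 encodes DEC1, an E-box repressor of the CLOCK and BMAL1 activator. Its signal was 10.51, 10.90, 10.54 and 10.23 at 0, 15, 30 and 45 min, and 10.53, 10.54 and 9.86 at 60, 90 and 120 min. It was 9.88, 9.40 and 9.04 at 150, 180 and 240 min, and 8.89, 9.01 and 9.43 at 300, 360 and 420 min. At 480, 540, 600 and 720 min it was 9.16, 8.76, 8.77 and 9.40. From 120 min on all 11 arrays lay below those at 0-45 min. Arntl, Bhlhe40 and Cry2 thus had all arrays from 120 min on outside the range of the first window, as had 12.5% of all features. These are 3 of 7 members, and for Cry2 the margin was small at 300 and 360 min. Bhlhe40 fell by 1.11 at 150-240 min (SE 0.20, adjusted p = 0.000386), by 1.43 at 300-420 min (adjusted p = 8.76e-06) and by 1.52 at 480-720 min (SE 0.19, adjusted p = 7.21e-07), the last a 2.87-fold difference from 10.55 ± 0.28 to 9.02 ± 0.31. Its absolute difference at 480-720 min was at percentile 98.1 of all features. Between 150-240 and 480-720 min Bhlhe40 differed by -0.41 (adjusted p = 0.124). This passed without the 240 min (adjusted p = 0.0354) or the 720 min array (adjusted p = 0.0491) and with array weights (-0.51, adjusted p = 0.0396). Between the alternative windows of 90-180 and 420-720 min the difference was -0.81 and passed (adjusted p = 0.000672). Without the 150 min array, the difference between 150-240 and 480-720 min was -0.19 (adjusted p = 0.553).

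Bhlhe41, which encodes DEC2, the close relative of DEC1, lay between 5.22 and 5.81 on all 17 arrays, at percentile 3.14 of all probe means. Its time course did not pass in the fit without the filter (adjusted p = 0.277). As with Cry1, the signal cannot be separated from background.

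**Figure D3:**
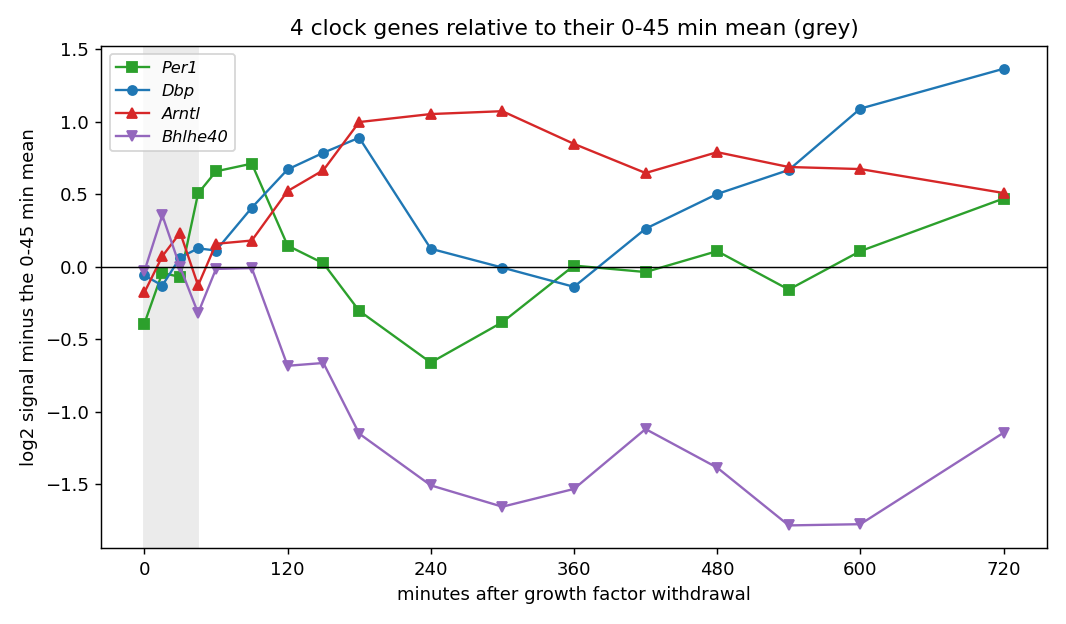
Log2 signal of Per1, Dbp, Arntl and Bhlhe40 minus each gene's own mean at 0-45 min (vertical axis) against minutes after withdrawal, with 1 point for each array. Per1 is highest at 90 min, the first Dbp maximum is at 180 min, Arntl is highest at 300 min, Bhlhe40 is lowest at 540 min, and Dbp has its highest value at 720 min.

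Per1 was thus highest at 90 min, before the early Dbp maximum at 180 min and the Arntl maximum at 300 min. Dbp was highest at 720 min, as was Nr1d2, while Cry2 was highest at 90 min, Bhlhe40 at 15 min and Per2 at 0 min. Each extreme is a single array, and Arntl differed little between 180 and 300 min (9.38, 9.44 and 9.46). The windows at 480-720 and 150-240 min differed for 2 of 7 members, with Nr1d2 higher and Per2 lower. Of all features, 17.9% were higher and 16.5% lower. The difference of these 2 means does not use the 0-45 min arrays, but its p-value does, through the spread shared by all windows.

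Beyond the members, 25 other clock genes in 4 lists were read in the same way. A probe was found for 21, and 13 lay above the filter, of which 9 passed the time course test, as did 61.9% of all features. At 480-720 min 6 of the 13 were lower than at 0-45 min and 0 were higher, against 25.9% and 26.8% of all features, while 7 did not pass. The median absolute difference was 0.26 for these 13 and 0.28 for all features. The core loop genes Clock, Ciart and Cipc and the output genes Noct, Wee1 and Nampt were the 6.

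Of the 9 further core loop genes 5 lay above the filter. Clock, the partner of BMAL1, had signals of 9.92, 10.19, 10.15 and 10.24 at 0-45 min and of 9.62, 9.86, 9.96 and 9.78 at 480-720 min. The groups overlapped through the arrays at 0 and 600 min, and the difference was -0.32 (SE 0.11, adjusted p = 0.0142), opposite in sign to that of Arntl. Ciart, also called Chrono, a repressor of BMAL1, fell by 0.68 (SE 0.13, adjusted p = 0.000203). Cipc, an inhibitor of CLOCK, fell by 0.95 (SE 0.12, adjusted p = 6.74e-07). Rora, a ROR receptor gene, did not pass at 480-720 min (0.09), although its time course did (adjusted p = 0.00279). Per3 lay below the filter and did not pass without it.

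Of the D-box factors, Tef differed by 0.26 at 480-720 min (SE 0.18, adjusted p = 0.232) and its time course did not pass (adjusted p = 0.118), and Hlf lay below the filter. Of the kinases and ubiquitin system, 4 of 9 lay above the filter and 0 of 4 passed at 480-720 min. Csnk1e, a kinase of PER proteins, was lower at 150-240 min (-0.38, adjusted p = 0.0149), and Usp2, a deubiquitinase of clock proteins, was higher then (0.47, adjusted p = 0.0042). Against 150-240 min, both differed the other way at 480-720 min, Csnk1e by 0.42 (adjusted p = 0.00469) and Usp2 by -0.32 (adjusted p = 0.0305). Csnk1d (-0.22) and Btrc (0.14) did not pass at 480-720 min.

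All 3 clock output genes above the filter fell at 480-720 min, where 25.9% of all features were lower. Noct, which encodes nocturnin, fell by 0.91 (SE 0.09, adjusted p = 5.77e-08). Nampt, the rate-limiting enzyme of NAD salvage, fell by 0.58 (SE 0.14, adjusted p = 0.00131). Wee1, a kinase that restrains entry into mitosis, fell by 0.44 (SE 0.12, adjusted p = 0.00277), with a mean signal of 6.42 that lay at the filter value. These genes and Dbp, all known targets of the clock in other mouse tissues, thus differed in opposite directions at 480-720 min.

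**Figure D4:**
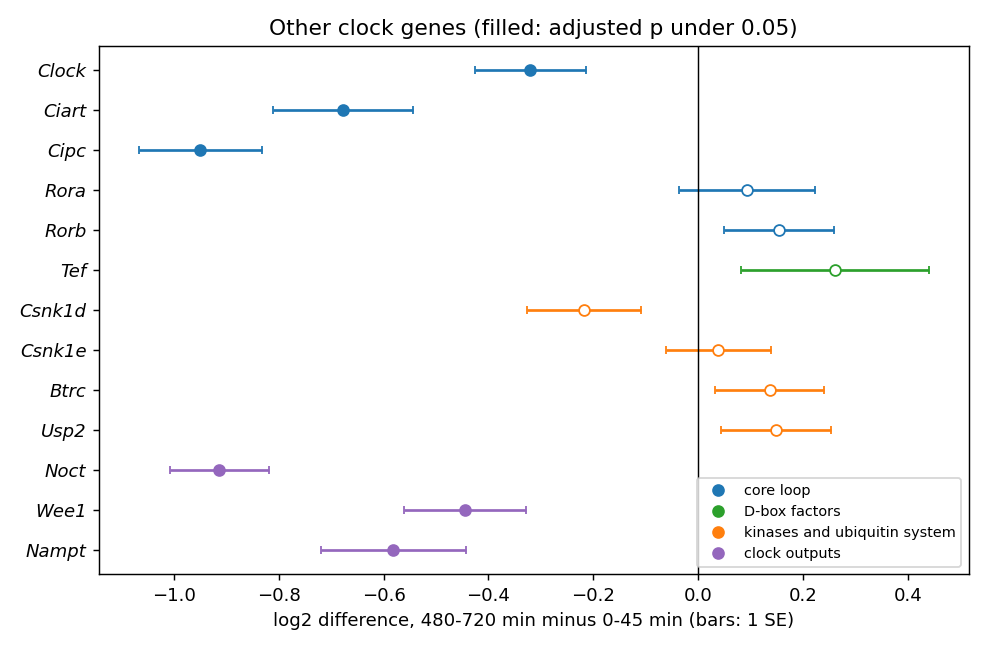
Log2 difference between the means at 480-720 and 0-45 min (horizontal axis) for the 13 other clock genes above the filter, coloured by list. Points are limma estimates with bars of 1 SE, and filled points have an adjusted p under 0.05. The 6 filled points all lie to the left of 0, from -0.95 for Cipc to -0.32 for Clock.

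Among 9206 other named genes above the filter, those whose signals over the 17 arrays were most like Arntl were Arhgef19 (Pearson r = 0.976), Tmem178 (0.970) and Kif21a (0.963). For Bhlhe40 they were Mogs (0.970), Dhx33 (0.968) and Ube2ql1 (0.963). For Dbp they were Fam53b (0.903), Fbxl16 (0.888) and Satb1 (0.878), and for Per1 Ipo9 (0.847), Prr3 (0.846) and Otx1 (0.798). For Per2 they were Pdcd2l (0.904), Itga5 (0.888) and Zbtb7c (0.884). For Cry2 they were Pea15 (0.897), Myh14 (0.880) and Sec11c (0.857), and for Nr1d2 Prune1 (0.834), 5031439G07Rik (0.827) and Arpc2 (0.823). Of the genes named here, Ipo9, Myh14, Sec11c and Arpc2 did not pass the time course test (adjusted p = 0.0831, 0.101, 0.481 and 0.109). These values describe likeness over arrays that share 1 series and its order in time, and 0 of the 21 nearest genes was another clock gene of the lists. So few of the 9206 genes were read that this count cannot show whether the clock genes were alike in their time courses.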

How the data were processed

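Total RNA, 1 sample for each of 17 times, was measured on Illumina bead arrays. The authors deposited 1 table of 19949 probes, with values on the log2 scale as read from their range. Per the labels' protocols, RNA was amplified and labelled with the TotalPrep kit, while background correction, normalization and scanner software are not stated there or in the file. The deposited log2 values were nearly equal in distribution (largest gap at 1 rank 0.135) and were used without further scaling.

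Symbols came from the platform annotation, with 18351 probes of 1 symbol, 0 of several and 1598 unnamed. They were updated with the RefSeq table of GRCm38.p6 through the gene identifier (16482) or accession (956). For a gene with several probes the one with the highest mean was used. Features with a mean below 6.41 were left out, and members below it were read from the fit of all 19854 features.

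Tests used limma 3.58.1 in R 4.3.3 on all 17 arrays, with p-values adjusted over all features tested (Benjamini-Hochberg, threshold 0.05). The time course was a natural cubic spline over square-root-transformed minutes (4 degrees of freedom), and the windows a fit of 5 means with 1 shared spread. The scripts were checked on simulated data. Alternatives covered scaling, the filter, the choice of probe, the variance model, the curve, the window limits and leaving out each array. Members, lists, windows and tests were chosen with earlier results of these data known. The genes named are all members, up to 4 genes per list with the largest difference at 480-720 min or any that passed the time course, and for each member the 3 most alike genes.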

Additional observations from a re-analysis of the deposited data

Results flagged for a closer look

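Per2 at 720 min, with a signal of 8.91, lay far from the other 3 arrays of the 480-720 min window, of which the nearest was at 8.39. The gap was 0.965 of the range of the window, above Dixon's critical value for 4 values. It was 1 of 18 sets of 4 arrays checked for the 9 measured clock genes, and chance flags about 1 in 20.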

How the results depend on the processing

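No paired analysis was possible because the labels give no replicate numbers and each time has 1 array. Over all alternatives, 1007 values of single members kept their side of the threshold and, for window differences, their direction. A further 13 no longer passed, 18 newly passed, 0 that passed reversed, and 20 that never passed changed sign. The cause of these shifts was not tested. A fitted range has no direction to keep. Leaving out an array outside both windows of a comparison changes its p-value but not its difference, so many of the 1007 could not have reversed. With array weights 484 features and 1 clock gene, Cry2, passed at 60-120 min against 0-45 min, where 193 and 0 had. With windows of 0-60, 90-180, 240-360 and 420-720 min, 1154 features passed at 90-180 min, which stands against both 60-120 (193) and 150-240 min (1925). In that setting 4 clock genes passed at 90-180 min, Dbp, Bhlhe40, Cry2 and Arntl. Leaving out each array in turn gave 5603 to 6116 features and 6 to 7 clock genes for the time course. It gave 58 to 359 features and 0 to 1 clock genes at 60-120 min, 1353 to 2048 and 2 to 3 at 150-240 min, and 3243 to 4068 and 2 to 3 at 300-420 min. It gave 4823 to 5260 and 5 to 6 at 480-720 min, and 2582 to 3476 and 1 to 3 for 480-720 against 150-240 min. The filter at the 60th percentile left Cry2 untested. The number of arrays and the lack of detection p-values limit what can be said of Cry1, Bhlhe41 and Cry2, whose signals lie near or below the filter.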
